A study of Mus musculus with 5 samples.

Results

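Npy1r, Htr1b, Htr2c and Cnr1 encode receptors through which neuropeptide Y, serotonin and endocannabinoids act on feeding circuits. They were followed in the ventromedial hypothalamus (VMH) of C57Bl/6 mice after electroconvulsive seizures (ECS). The genes were chosen by name, as 4 of the 6650 genes measured on the arrays, and all 5 probe sets annotated to them were read, out of 20380 with a single gene symbol. The 5 groups are 7 shocks with collection 6 h or 2 h after the last, 1 shock with collection at 6 h or 2 h, and sham treatment with collection at 2 h, so that the 6 h groups have no sham of their own time. ECS was a current of 25 mA for 1 sec (100 pulses per sec, each of 0.5 msec) through ear clip electrodes under isoflurane. The sham group was treated alike but received no current. Each of the 5 groups is 1 Affymetrix array of RNA pooled from 2 or 3 animals, and the labels state no age. The VMH was cut out of 7 µm sections by laser, and 2 ng of its RNA was amplified. The second set of animals described in the design is not analysed here. A single array per group leaves replicate error unmeasured, and no significance test was run. Sizes alone are given, and a gene is called higher or lower once its log2 difference reaches 1, or 2-fold.

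The Y1 receptor encoded by Npy1r binds neuropeptide Y, a peptide of arcuate neurons that drives feeding, and couples to inhibitory Gi/o proteins. Both serotonin receptors take part in the satiety effect of serotonin, Htr1b through Gi/o, largely on axon terminals, and Htr2c through Gq, on pro-opiomelanocortin neurons among others. Cnr1 encodes the main cannabinoid receptor of the brain, a Gi/o-coupled receptor on presynaptic terminals, where endocannabinoids released by the postsynaptic cell reduce transmitter release and promote feeding.

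The start regions of the genes are shown because AP-1, the Fos and Jun dimer, is a well known product of seizure activity, and its motif was found near the start of some of these genes and not of others. RefSeq windows on GRCm38.p6, 250 bases before to 50 after an annotated start, were found for all 4 genes, with 6 windows in all. The letters TGANTCA (AP-1, either strand) occurred 1 time each in the windows of Npy1r, 231 bases before the start, and Htr2c, 198 bases before the start. The Npy1r match lies before that start but inside the annotated span of the gene, whereas the Htr2c match lies before the gene's span. They were in no window of Htr1b or Cnr1, and 7.81% of all 32851 windows hold them. The letters TGACGTCA (CRE, in 1.79% of all windows), GCGTGGGCG (Egr factors, 0.612%) and CAAGGTCA (Nr5a1, the VMH-defining factor, 1.56%) were in none of the 6 windows. A match describes letters, not binding. Below are 30 bases around the Npy1r match (chr8:66697179-66697208, + strand), the part of the Htr2c window upstream of the annotated gene (chrX:146962263-146962463, + strand) and, for comparison, the 250 bases before the Htr1b start (chr9:81633833-81634082, - strand), with AP-1 letters in capitals.
Npy1r: atgcgccttgctTGAGTCAaggactagtgg
Htr2c: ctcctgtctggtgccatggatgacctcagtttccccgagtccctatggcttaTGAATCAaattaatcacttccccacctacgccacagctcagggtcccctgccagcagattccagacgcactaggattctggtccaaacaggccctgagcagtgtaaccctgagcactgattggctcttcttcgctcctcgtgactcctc
Htr1b: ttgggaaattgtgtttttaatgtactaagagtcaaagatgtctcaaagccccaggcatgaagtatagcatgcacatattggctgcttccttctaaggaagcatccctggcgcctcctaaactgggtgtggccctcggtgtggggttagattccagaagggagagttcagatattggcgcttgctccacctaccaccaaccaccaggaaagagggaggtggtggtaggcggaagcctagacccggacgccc

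The median deposited signal per array was between 20.3 and 31.6, so levels below were centred on each array's median (log2 shifts against sham of 0.48, 0.50, 0.40 and -0.13 for 7 shocks at 6 h, 7 shocks at 2 h, 1 shock at 6 h and 1 shock at 2 h). The 3' to 5' signal ratio of the Gapdh controls was highest on the 1 shock 2 h array (8.77), against 5.37 to 6.67 on the other 4. That of the actin controls was highest on the 1 shock 6 h array (1.1), with 0.889 on the 1 shock 2 h array and 0.593 to 0.799 on the rest. The tissue fields name the VMH while a descriptive field says PVN. The VMH factor Nr5a1 had centred levels of 67.3 to 158 and the glutamate transporter gene Slc17a6 of 439 to 563, and Sox14 and Nkx2-1 of the same list had deposited signals of at most 10.6 and 18.4. On the PVN list, 2 of 6 markers were measured, and Sim1, Otp and Avp had deposited signals of at most 14.3, 20.9 and 54.8. Its peptide gene Trh had centred levels of 109 to 157, and Oxt had centred levels of 52.1, 52.8, 11.5 and 27.9 on the ECS arrays in the order just given and 16.4 on the sham array. Fos, a marker of seizure activity, stood at 25.5, 75.6, 23.3 and 185 on the same ECS arrays and 12.6 on the sham array. The 1 shock 6 h array stood apart by its cortical and amygdalar marker genes, with a summed centred level of 71.8 over 3 measured markers of 8, against 485 to 813 on the other arrays. In pooled bulk tissue, fewer cells of a type and less RNA per cell cannot be told apart.

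Npy1r was higher on all 4 ECS arrays than on the sham array, and furthest so at 6 h after 1 shock. Its deposited signals were 32.4 (7 shocks, 6 h), 45.5 (7 shocks, 2 h), 71.2 (1 shock, 6 h), 18.3 (1 shock, 2 h) and 13.0 (sham). After centring these were 28.6, 39.2, 65.4, 25.4 and 16.9, so that sham was the lowest of the 5 and 1 shock at 6 h the highest. At 6 h after 1 shock Npy1r was 3.87-fold above the 2 h sham (log2 difference 1.95). Npy1r counts as measured through this array: with the filter made without it, an alternative chosen after seeing the data, its geometric mean signal was 24.5 and it was not kept, so no rank among measured genes is given. It was the receptor called in that comparison, 1 of 4, where 14.1% of all genes were called (6.74% higher, 7.35% lower). At 2 h after 7 shocks it was 2.32-fold above sham (1.21), again the single receptor called of 4, beside 13.3% of all genes (6.57% higher, 6.72% lower). With a pseudocount of 6.1 in place of 1.2 this difference was 0.95, short of 2-fold. The differences at 6 h after 7 shocks (0.76) and 2 h after 1 shock (0.59) did not reach 2-fold. The summed VMH markers had the same order of arrays as Npy1r, but none of the 5 measured markers (of 8) had it alone. The sums were 3020 (7 shocks, 6 h), 3100 (7 shocks, 2 h), 3660 (1 shock, 6 h), 2590 (1 shock, 2 h) and 2070 (sham). The sham array was lowest in the sum through Adcyap1 (611, against 900 at 2 h after 1 shock) and Nptx2 (161 against 517), which were lowest on it. Nr5a1 (67.3), Slc17a6 (439) and Cbln1 (671) were lowest on the 1 shock 2 h array. On the 1 shock 6 h array Nr5a1 was highest (158) and the cortical and amygdalar markers lowest (71.8), and the part of tissue makeup in the Npy1r readings was not tested. All 4 of these comparisons share the sham array, which was the lowest of the 5 arrays for 19.8% of all genes, so a single low sham reading places a gene above sham 4 times.

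Over time, Npy1r was higher at 6 h than at 2 h after 1 shock (65.4 against 25.4, log2 difference 1.36), a comparison in which it was the receptor called, 1 of 4, beside 15.0% of all genes (7.41% higher, 7.59% lower). After 7 shocks its 6 h level was below its 2 h level (28.6 against 39.2, -0.45). By number of shocks it was lower after 7 than after 1 at 6 h (28.6 against 65.4, -1.19), and not past 2-fold at 2 h (39.2 against 25.4, 0.62). These rest on 1 probe set. The second one read 9.0, 4.0, 2.8, 3.8 and 3.6 in the same order of arrays, below the minimum for a measured probe set (a geometric mean signal of 24.9), and it was highest on the 7 shocks 6 h array and lowest on the 1 shock 6 h array, where the first was highest.

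Its ligand gene Npy ran otherwise on the arrays. Npy had centred levels of 117 (7 shocks, 6 h), 41.0 (7 shocks, 2 h), 29.5 (1 shock, 6 h), 79.9 (1 shock, 2 h) and 85.8 (sham). It was therefore lowest on the array where Npy1r was highest, at a log2 difference of -1.54 from sham, and was also lower than sham at 2 h after 7 shocks (-1.06). All 8 genes of the neuropeptide Y family had a probe set, and Npy and Npy1r were the 2 bright enough to be measured. The other receptors of the family stayed dim, with deposited signals of 3.6 to 22.0 for Npy2r, 2.9 to 11.9 for Npy5r, 1.1 to 5.1 for Npy6r and 0.1 to 2.2 for Npy4r. Npy neurons lie in the neighbouring arcuate nucleus, and Npy is itself among the 4 measured arcuate markers of 8. The summed level of these markers was 1050 on the 7 shocks 6 h array, 618, 668 and 558 on the other ECS arrays in the order above, and 785 on the sham array. The summed cortical and amygdalar markers were lowest where Npy was lowest (71.8, 1 shock, 6 h). They were highest (813) at 2 h after 7 shocks, where Npy was also below sham. The part of dissection in these Npy readings was not tested.

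**Figure D1:**
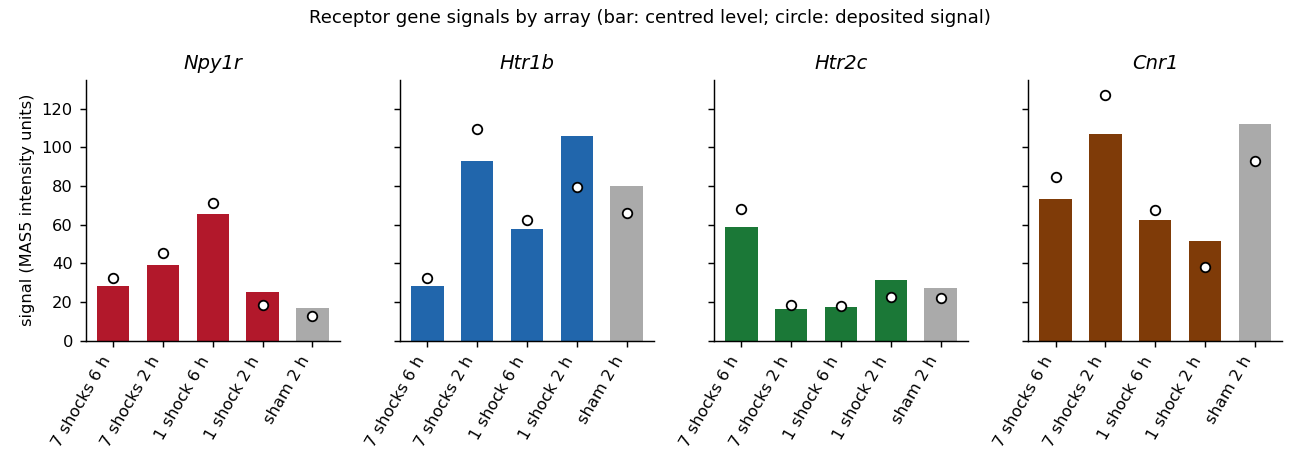
Signal of the brightest probe set of Npy1r, Htr1b, Htr2c and Cnr1 on each of the 5 arrays (x axis: group; y axis: MAS5 intensity units from 0). Bars are levels after centring, coloured for ECS arrays and grey for sham, and open circles are the deposited signals. Npy1r peaks at 65.4 on the 1 shock 6 h array, Htr2c at 59.1 on the 7 shocks 6 h array, where Htr1b is lowest at 28.6.

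Htr1b was lower at 6 h after 7 shocks than on any other array. Its deposited signals were 32.4 (7 shocks, 6 h), 109.6 (7 shocks, 2 h), 62.7 (1 shock, 6 h), 79.7 (1 shock, 2 h) and 66.0 (sham). The centred levels were 28.6, 92.9, 57.7, 106 and 80.0. The 7 shocks 6 h level lay 1.01 on the log2 scale below the next lowest, while the 3 arrays collected at 2 h held the 3 highest levels. Against sham the difference at 6 h after 7 shocks was -1.48, and 2.51% of all genes lay lower. In that comparison 2 of the 4 receptors were called, Htr1b lower and Htr2c higher, beside 13.8% of all genes (6.78% higher, 7.07% lower).

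Within the repeatedly shocked animals, Htr1b was 3.25-fold lower at 6 h than at 2 h (28.6 against 92.9, log2 difference -1.70), with 1.49% of all genes lower still. After 1 shock the time difference had the same sign and was smaller (57.7 against 106, -0.87). At 6 h it was lower after 7 shocks than after 1 by a margin close to the threshold (28.6 against 57.7, -1.01), and short of 2-fold without rescaling (-0.93) and with a pseudocount of 6.1 (-0.92). At 2 h the difference between 7 shocks and 1 was -0.18 (92.9 against 106), and 0.45 without rescaling.

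Htr2c, the other serotonin receptor bright enough to be measured, had its highest reading where Htr1b had its lowest. Its deposited signals were 68.3 (7 shocks, 6 h), 18.5 (7 shocks, 2 h), 18.2 (1 shock, 6 h), 22.9 (1 shock, 2 h) and 21.9 (sham). The centred levels were 59.1, 16.5, 17.5, 31.4 and 27.5. The 7 shocks 6 h level stood 0.91 above the next highest on the log2 scale, and the other 4 arrays lay within 16.5 to 31.4. Against sham it was 2.15-fold higher (1.10, and 0.95 with a pseudocount of 6.1), whereas the other ECS arrays were at -0.73 (7 shocks, 2 h), -0.65 (1 shock, 6 h) and 0.19 (1 shock, 2 h).

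The largest difference of Htr2c was between times after 7 shocks. It was 3.58-fold higher at 6 h than at 2 h (59.1 against 16.5, log2 difference 1.84). Htr2c counts as measured through the 7 shocks 6 h array: with the filter made without that array its geometric mean signal was 20.3 and it was not kept, nor was it (26.8) without the 1 shock 2 h array, so no rank among measured genes is given. Of the 4 receptors, 2 were called in this comparison, Htr2c higher and Htr1b lower, beside 12.9% of all genes (6.3% higher, 6.65% lower). After 1 shock the time difference had the opposite sign (17.5 against 31.4, -0.84). At 6 h, 7 shocks stood 3.37-fold above 1 shock (59.1 against 17.5, 1.75). In that comparison 3 of the 4 receptors were called, Htr2c higher and Npy1r and Htr1b lower, beside 16.5% of all genes (7.91% higher, 8.59% lower). At 2 h the same contrast was -0.93 (16.5 against 31.4).

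Some arcuate markers also had their highest level on this array. The arcuate peptide genes Pomc, the precursor of melanocortins, and Tac2, which encodes neurokinin B, had centred levels of 661 and 80.9 on the 7 shocks 6 h array, against 265 to 404 and 15.0 to 48.0 on the other 4. Cartpt, the remaining measured arcuate marker beside Npy, did not share this, with 189 on the 7 shocks 6 h array and 183 to 288 on the others. Nr5a1 stood at 130 there, within its range on the other arrays. Htr2c is also very abundant in choroid plexus, and none of the 8 listed choroid plexus and ependymal markers was measured. Of these, Ttr, the most abundant transcript of that tissue, had deposited signals of 0.7 to 28.7, and Aqp1, Folr1 and Otx2 of at most 7.4, 9.3 and 2.9. The part of arcuate or choroid plexus tissue in the Htr2c readings was not tested.

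Among the serotonin receptor genes, 13 of the 14 listed had a probe set and the other 11 of these were too dim to be measured. Htr1a, a Gi/o-coupled autoreceptor, came nearest with deposited signals of 15.0 to 45.3, while Htr7 (0.9 to 8.4), Htr5b (0.2 to 2.7) and Htr2b (0.5 to 4.6) were near the bottom of the scale. Of the genes for serotonin synthesis, transport and breakdown, 2 of 8 were measured. Ddc, the decarboxylase that makes serotonin and dopamine, had its lowest level on the sham array, with differences of 0.92 (7 shocks, 6 h), 0.36 (7 shocks, 2 h), 0.86 (1 shock, 6 h) and 0.98 (1 shock, 2 h), none past 2-fold. Maoa, which breaks down monoamines, was lower than sham at 2 h after 7 shocks (43.4 against 110, -1.35) and within 0.20 of it on the other ECS arrays. Adarb1, one of the enzymes that edit Htr2c transcripts in mammals, differed from sham by 0.17, 0.34, -0.53 and -0.07 in the same order of arrays, and the probe sets do not report editing.

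Cnr1 was lower than sham at 2 h after 1 shock. Its deposited signals were 84.7 (7 shocks, 6 h), 126.9 (7 shocks, 2 h), 67.8 (1 shock, 6 h), 38.2 (1 shock, 2 h) and 93.0 (sham). The centred levels were 73.1, 107, 62.3, 51.4 and 112, so sham and 7 shocks at 2 h were the 2 highest, 0.06 apart on the log2 scale, and both arrays after 1 shock were the 2 lowest. At 2 h after 1 shock the level was 2.18-fold lower than sham (log2 difference -1.13), and 4.81% of all genes lay lower. Cnr1 was the receptor called in this comparison, 1 of 4, beside 12.3% of all genes (5.98% higher, 6.29% lower). The remaining differences from sham were -0.62 (7 shocks, 6 h), -0.06 (7 shocks, 2 h) and -0.85 (1 shock, 6 h). The last of these is on the array where cortical and amygdalar markers were low, and their part in it was not tested. Without rescaling the value at 2 h after 7 shocks was 0.44, so its sign depends on the scaling.

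At 2 h, Cnr1 stood 2.09-fold higher after 7 shocks than after 1 (107 against 51.4, log2 difference 1.06, and 0.98 with a pseudocount of 6.1), the single receptor called of 4, beside 13.7% of all genes (6.92% higher, 6.83% lower). At 6 h the same contrast was 0.23 (73.1 against 62.3). By time it was at 0.28 after 1 shock (62.3 against 51.4) and -0.56 after 7 shocks (73.1 against 107). The 1 shock 2 h array, where Cnr1 was lowest, also had the highest Gapdh 3' to 5' ratio. The actin ratio was highest on the 1 shock 6 h array instead (1.1 against 0.889). The part of RNA quality in this Cnr1 reading was not tested. Cck, a peptide of the cortical interneurons that carry much of the brain's Cnr1, had levels of 86.9, 107, 10.5, 78.0 and 74.1 in the order 7 shocks at 6 h and 2 h, 1 shock at 6 h and 2 h, and sham. The summed cortical and amygdalar markers were 714, 813, 71.8, 485 and 761 in that order, and their part in the Cnr1 reading was not tested.

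Of the endocannabinoid genes, 8 of 12 listed had a probe set and 6 were measured, Cnr1 included. Mgll, the lipase that breaks down 2-arachidonoylglycerol, was higher than sham at 2 h after 7 shocks (177 against 48.9, 1.86), with 0.67 on its other probe set, and at 0.72, -0.08 and 0.38 on the 7 shocks 6 h, 1 shock 6 h and 1 shock 2 h arrays. Daglb, a lipase that makes the same lipid, stayed between -0.51 and 0.47 of sham, Faah, which breaks down anandamide, between -0.85 and -0.07, and the hydrolase genes Abhd6 and Abhd12 between -0.03 and 0.57. Over the 6 genes, 0 were higher and 0 lower by 2-fold at 6 h after 7 shocks (median -0.03), 1 was higher at 2 h after 7 shocks (median 0.24), none passed at 6 h after 1 shock (median -0.29) and 1, Cnr1 itself, was lower at 2 h after 1 shock (median 0.23). The shares of all genes past 2-fold were 13.8%, 13.3%, 14.1% and 12.3% in these comparisons. The median over all genes in these comparisons was 0.01, 0.01, 0.06 and 0.01. The second cannabinoid receptor gene Cnr2 had deposited signals of 0.4 to 3.7.

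**Figure D2:**
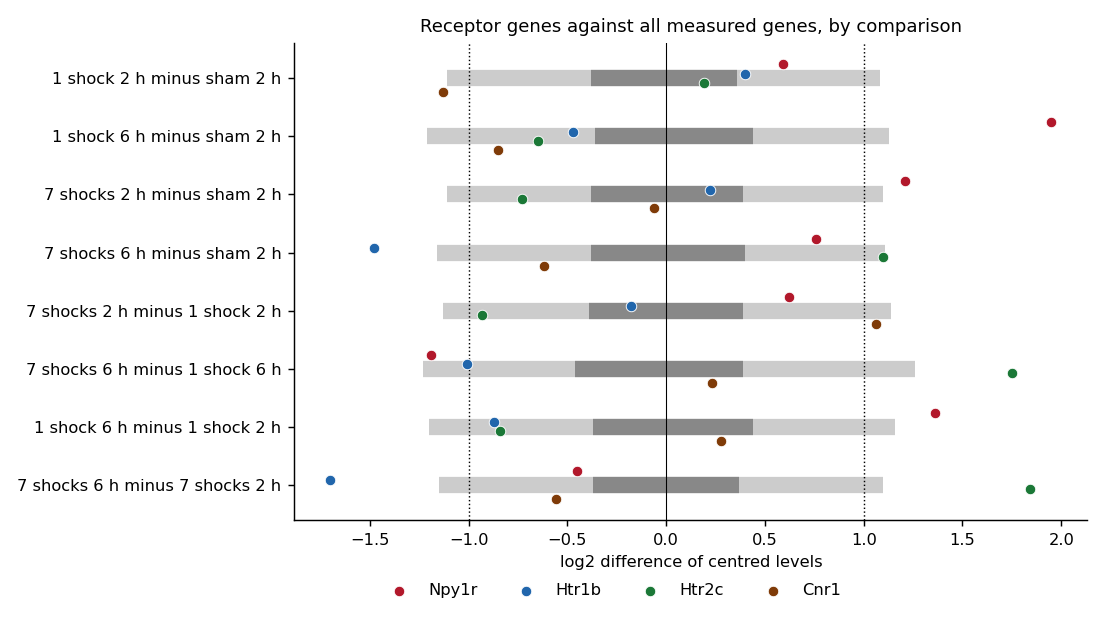
Log2 difference of centred levels (x axis) of the 4 receptor genes in each of the 8 comparisons (y axis), as coloured points. Grey bars span the 5th to 95th percentile of all 6650 genes and dark bars the 25th to 75th, and dotted lines mark 2-fold. Htr2c at 1.84 and Htr1b at -1.70 lie on opposite sides at 6 h against 2 h after 7 shocks, and Npy1r is at 1.95 at 6 h after 1 shock against sham. Npy1r and Htr2c were measured through the arrays where they are highest, so their place beside the bars is no support.

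**Figure D3:**
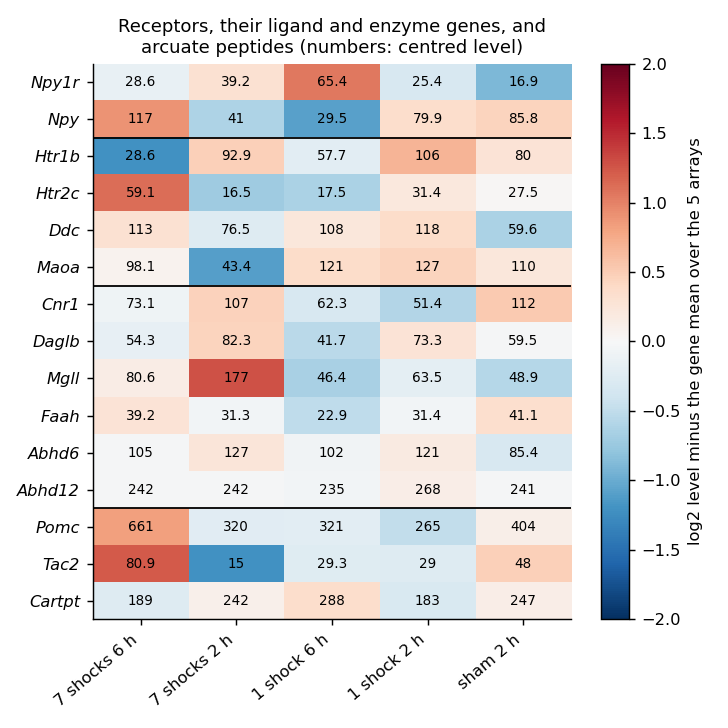
Centred levels (numbers) of the receptor genes, their ligand, synthesis and breakdown genes, and 3 arcuate peptide genes on each array (columns), coloured by log2 level minus the gene's mean over the 5 arrays. Npy1r (65.4) and Npy (29.5) are at opposite ends on the 1 shock 6 h array. Htr2c (59.1), Npy (117), Pomc (661) and Tac2 (80.9) are each highest on the 7 shocks 6 h array. Cartpt is at 189 there and highest on the 1 shock 6 h array (288).

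The shares of all genes past 2-fold against sham, given above, were 13.8%, 13.3%, 14.1% and 12.3% for 7 shocks at 6 h and 2 h and 1 shock at 6 h and 2 h, and the counts of signalling partners are read beside them. Of the Gi/o coupling genes, 21 of 30 were measured. Against sham, 2 were higher and 1 lower at 6 h after 7 shocks (median 0.18), 1 and 1 at 2 h after 7 shocks (0.22), 1 and 0 at 6 h after 1 shock (0.11), and 1 and 1 at 2 h after 1 shock (-0.05). Gnaz, an inhibitory G-protein subunit, was lower at 6 h after 7 shocks (53.4 against 182, -1.77), at 2 h after 7 shocks (-1.21) and at 2 h after 1 shock (-1.33), and stood at 0.08 at 6 h after 1 shock. Rgs4, which shortens Gi/o and Gq signals, was higher at 6 h after 7 shocks (1.07), 2 h after 7 shocks (1.19) and 2 h after 1 shock (1.88), with its other probe sets between -0.14 and 1.51 there. The adenylyl cyclase gene Adcy9 was higher at 6 h after 7 shocks (1.36, with 0.47 on a further probe set), and the G-protein subunit gene Gnb5 at 6 h after 1 shock (1.11).

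Of the Gq coupling genes, through which Htr2c signals, 10 of 15 were measured. Against sham, 3 were higher and 0 lower at 6 h after 7 shocks (median 0.24). The counts were 1 and 0 at 2 h after 7 shocks (0.35), 1 and 2 at 6 h after 1 shock (-0.15), and 1 and 1 at 2 h after 1 shock (-0.03). The Gq subunit gene Gnaq itself was higher at 1.10 (7 shocks, 6 h) and 1.42 (1 shock, 2 h), and at 0.99 and 0.92 on the other ECS arrays. The protein kinase C genes Prkce and Prkca stood at 1.43 and 1.17 at 6 h after 7 shocks, but at 0.82 and -0.82 on their other probe sets. Prkce also stood at 1.09 at 2 h after 7 shocks and 1.07 at 6 h after 1 shock, with -0.08 and 0.1 on its other probe set. Plcb1, the phospholipase that Gq activates, was at -2.15 at 6 h after 1 shock on one probe set and 0.32 on the other, and the calcium kinase gene Camk2a at -1.32 there. That array also had the lowest summed cortical and amygdalar markers (71.8), and their part in these readings was not tested. The phospholipase gene Plcb4 was at -1.26 at 2 h after 1 shock, with 1.33 on its other probe set.

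Other appetite receptors were mostly too dim, with 6 of 25 measured. The cholecystokinin receptor gene Cckbr was higher at 2 h after 7 shocks (159 against 61.5, 1.37) and at 2 h after 1 shock (130 against 61.5, 1.08), with 0.98 and 1.35 on its other probe set. The PACAP receptor gene Adcyap1r1 and the orphan receptor gene Gpr83 were lower at 6 h after 7 shocks, at -1.03 and -1.14. No other measured receptor of the list passed 2-fold against sham on its brightest probe set. The insulin receptor gene Insr stood at 0.33 on that probe set at 6 h after 1 shock, and at -1.13 on its other. The list's medians were -0.45 (7 shocks, 6 h), -0.1 (7 shocks, 2 h), 0.02 (1 shock, 6 h) and 0.2 (1 shock, 2 h). The leptin receptor gene Lepr had deposited signals of 0.6 to 15.9.

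The 4 receptor genes did not follow one another over the arrays. The root mean square distance between 2 genes' log2 profiles over the 5 arrays, each less its own mean, was 0.77 for Htr1b and Cnr1, the closest pair, and 1.21 for Htr1b and Htr2c, the furthest. By this measure the 3 genes nearest to Npy1r were Phf21a, a chromatin reader (0.073), Tmem128 (0.158) and the collagen gene Col4a2 (0.160). Nearest to Htr1b were Rgcc, a cell cycle regulator (0.092), Cramp1l (0.123) and the exocytosis GTPase gene Rab27b (0.183). Nearest to Htr2c were the ubiquitin ligase genes Vhl (0.156) and Mul1 (0.172) and the RNA export gene Rae1 (0.190), and nearest to Cnr1 the kinase gene Cdk4 (0.083), Osbpl2, a lipid binding protein gene (0.090), and Cyth3 (0.109). These are the closest of 6650 genes over 5 arrays, given as a description with no test.

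Brightness bears on the size of these differences. The range over the 5 arrays was 1.95 on the log2 scale for Npy1r, 1.88 for Htr1b, 1.84 for Htr2c and 1.13 for Cnr1, against a median of 0.98 over all genes. Npy1r and Htr2c passed the filter through the array where each was highest, so their place against that median is no support. Dim genes vary more from array to array. When the genes were ranked by mean level and cut into 10 classes of 665, the median range was 1.48 in the dimmest class and 0.46 in the brightest. Npy1r and Htr2c belong to the dimmest class. Htr1b and Cnr1 belong to class 4 of the 10, counted from the dimmest, (median range 1.17), where 86.2% and 46.5% had a smaller range. In the dimmest class 31.3% of genes were called at 6 h after 7 shocks against sham and 29.6% at 6 h after 1 shock against sham, comparisons in which Htr2c and Npy1r were called. For 7 shocks against 1 at 6 h, where Htr2c, Npy1r and Htr1b were called, 33.4% were called in the dimmest class and 22.9% in class 4. In the class of Htr1b, 2.86% lay below it at 6 h after 7 shocks against sham, and 1.5% at 6 h against 2 h after 7 shocks.

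For a sense of scale, 20 genes typical of liver, muscle, lens, testis, skin and other tissues outside the brain, listed after the receptor values were seen, had median deposited signals of 7.4, 5.8, 3.9, 6.45 and 2.55 on the arrays in the order 7 shocks at 6 h and 2 h, 1 shock at 6 h and 2 h, and sham. On each array, between 1 and 5 of these 20 genes read above any given one of the 4 receptors. The geometric mean deposited signal of Htr2c was 26.0, just above the minimum of 24.9 for a measured probe set, and that of Npy1r was 30.4.

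**Figure D4:**
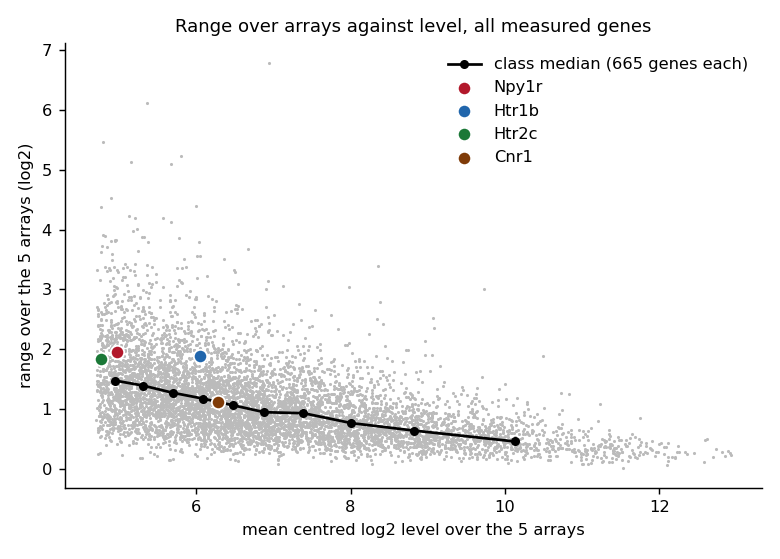
Range of each measured gene over the 5 arrays on the log2 scale (y axis) against its mean centred log2 level (x axis), with the median of each class of 665 genes in black. Htr1b at 1.88 lies above its class median of 1.17 and Cnr1 at 1.13 close to it, and Npy1r and Htr2c, at 1.95 and 1.84, passed the filter through their highest array.

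Over the 32 values (4 genes in 8 comparisons), 12 were past 2-fold, 7 higher and 5 lower, and 13 processing settings gave 337 further values for them. By comparison, 12.3% to 16.5% of all genes were past 2-fold, and 25.1% to 33.4% of the dimmest class, which holds Npy1r and Htr2c. The 8 comparisons reuse 5 arrays, so the 32 values are not independent. Averaging probe sets could not change a value, since each receptor had 1 kept probe set. None of the 12 changed sign, and 4 of them fell short of 2-fold with a pseudocount of 6.1, as the plot of settings shows. A filter on the top 25% of probe sets left none of the 4 genes measured.

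**Figure D5:**
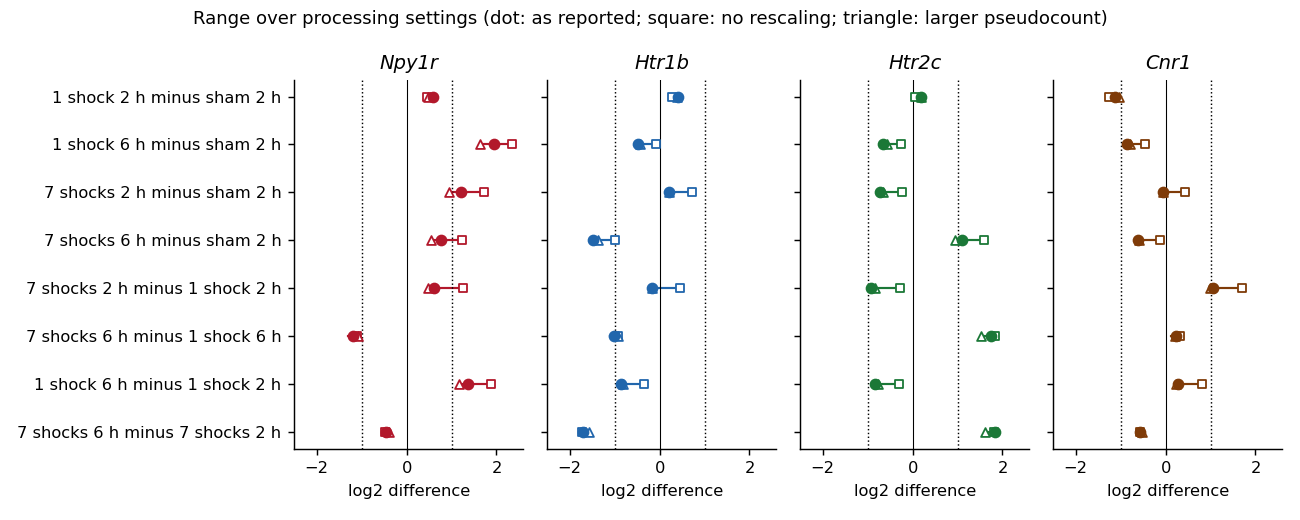
Log2 difference of each receptor gene (panels) in the 8 comparisons (y axis), as reported (dot), without rescaling (square), with a pseudocount of 6.1 (triangle) and over the full range of settings (line), with dotted lines at 2-fold. Htr2c at 6 h against 2 h after 7 shocks stays between 1.61 and 1.91, and Npy1r at 6 h after 1 shock against sham between 1.64 and 2.35.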

How the data were processed

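The data are 5 Affymetrix mouse arrays of laser-dissected VMH, 1 per group. The authors deposited 1 intensity value per probe set on a linear scale, made with MAS5 per the submitters' processing notes. Its version and scaling target are not given here. Of 22690 probe sets, 64 controls, 691 with several gene symbols in the platform annotation and 1555 with none were left out, and 20351 of the other 20380 matched a RefSeq gene by ID. Values were taken to log2 after adding a pseudocount of 1.2, the 10th percentile, so folds of dim genes are understated. Probe sets in the top 50% by mean log2 value were kept (10402, for 6650 genes), each array was centred on its median, and a gene took its brightest kept probe set. The text calls a gene measured if a probe set was kept. Calls were made at 2-fold. The steps that make them were checked on simulated data, which does not measure the replicate error of these arrays. Precision is limited by the 5 arrays. Tried as alternatives were no rescaling, quantile normalization, cyclic loess, a pseudocount of 0 or 6.1, no filter, a filter at the top 25%, averaged probe sets, omission of probe sets marked as cross-hybridising, and, after seeing the data, a filter and centring without each array in turn. The receptor genes and gene lists were chosen with earlier results of these data known. Named are the receptors, list members past 2-fold against sham, family, ligand and enzyme genes by level, tissue markers, and the 3 genes nearest in profile. Python 3.11.15, numpy 2.4.6, pandas 2.3.3, matplotlib 3.10.9, R 4.3.3 and limma 3.58.1 were used.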

Additional observations from a re-analysis of the deposited data

Results flagged for a closer look

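For 3 of the receptor genes, effects under the same contrast had opposite signs in groups that share no array. The share of all genes with opposite signs was not counted, so the 3 are not set apart from other genes. The median of all genes in these comparisons lay between -0.05 and 0.06, where signs turn easily. None of the receptor differences was tested, since each group is 1 array. Htr2c was higher after 7 shocks than after 1 at 6 h (1.75) and lower at 2 h (-0.93), and was higher at 6 h than at 2 h after 7 shocks (1.84) and lower after 1 shock (-0.84). The difference between the effects, the same number for both contrasts, was 2.68. Its larger part in either contrast (1.75 or 1.84) includes the 7 shocks 6 h array, through which Htr2c passed the filter on dim probe sets. Npy1r was lower after 7 shocks than after 1 at 6 h (-1.19) and higher at 2 h (0.62), and was at -0.45 for 6 h against 2 h after 7 shocks and 1.36 after 1 shock. The difference between effects of Npy1r was -1.82. Its larger part in either contrast (-1.19 or 1.36) includes the 1 shock 6 h array, through which Npy1r passed that filter. Cnr1 stood at -0.56 for 6 h against 2 h after 7 shocks and 0.28 after 1 shock, neither past 2-fold. Its difference between effects was -0.84, and 34.3% of all genes had one larger in size.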

How the results depend on the processing

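Of the 337 values of the receptor genes under alternatives, 330 kept their side of 2-fold, 5 lost it, 2 gained it and none past 2-fold reversed. Not all of these values were free to differ. Each receptor had 1 kept probe set, so averaging probe sets returned the reported values. The settings made without 1 array only redo the filter and centring, and keep both arrays compared. With a pseudocount of 6.1, Npy1r at 2 h after 7 shocks against sham was 0.95, Htr2c at 6 h after 7 shocks against sham 0.95, Htr1b for 7 shocks against 1 at 6 h -0.92 and Cnr1 for 7 shocks against 1 at 2 h 0.98. Without rescaling, Htr1b for 7 shocks against 1 at 6 h was -0.93, and Npy1r passed 2-fold at 6 h after 7 shocks against sham (1.24) and for 7 shocks against 1 at 2 h (1.26). In the top 25% of probe sets none of the 4 genes was left, so that setting gives no value for them, and the filter and centring made without 1 array give none for Npy1r (without 1 shock at 6 h) or Htr2c (without 7 shocks at 6 h or 1 shock at 2 h). Counts of genes past 2-fold moved most with the filter. In the order 7 shocks at 6 h, 7 shocks at 2 h, 1 shock at 6 h and 1 shock at 2 h against sham, they were 921, 884, 937 and 816 as reported, 3417, 3233, 3481 and 3042 with no filter, and 235, 206, 239 and 168 in the top 25%. For 7 against 1 shock at 6 h and at 2 h, and 6 h against 2 h after 7 and after 1 shock, they were 1097, 914, 861 and 998 as reported, 3664, 3220, 3254 and 3506 with no filter, and 298, 228, 202 and 260 in the top 25%. Without rescaling, which shifts the median of all genes against sham by 0.50, 0.51, 0.46 and -0.12, the counts were 1483, 1467, 1363 and 863 against sham (88.6%, 90.3%, 83.1% and 33.7% of them higher, against 49.0%, 49.4%, 47.8% and 48.8% as reported), 1124 and 1873 for 7 against 1 shock (58.3% and 94.4% higher, against 47.9% and 50.3%), and 858 and 1750 for 6 h against 2 h (46.6% and 90.0%, against 48.7% and 49.4%). Directions at small sizes therefore depend on centring. No paired analysis was possible because each group is 1 array, and for the same reason no array could be left out of its group.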
